A study of Mus musculus with 2 samples.

Results

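The circadian clock genes described here are Clock, Arntl, Per1, Per2, Per3, Cry1, Cry2, Dbp, Bhlhe40 and Bhlhe41, chosen by their gene symbols and not by their values. All 10 were found among the 22558 genes of the tables. The study sequenced RNA from 2 libraries of sorted tumour cells of the inbred mouse strain FVB. Breast tumours were dissociated, and the untreated cells went straight to flow cytometry. TIC, the tumour-initiating cells, are the fraction named for its ability to start a new tumour, and NTC are the non-tumorigenic cells. The age and genotype of the mice, the tumour model, the number of animals or tumours pooled, the markers of the sort and the time of day at which tissue was taken are not stated in these sources. Each group had 1 library, so there is no replicate check, and every difference is one between these 2 libraries. Levels are in FPKM, fragment numbers divided by transcript length and by library depth, which allows levels of different genes to be set side by side.

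The circadian clock is a feedback loop of transcription that runs in most cells of the body and gives many genes a daily rhythm. The proteins CLOCK and BMAL1 (the product of Arntl) pair up and switch on genes that carry an E-box in their control regions, among them the Per and Cry genes, whose proteins return to the nucleus and block the pair. In a second loop, the REV-ERB receptors repress Arntl and the ROR receptors activate it, and a further set of factors acts through a site called the D-box. Because the levels of these genes change over the day, one library shows a single point of that cycle, averaged over all its cells, and a lower level of a gene in every cell cannot be told apart from fewer cells that express it.

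The sites through which these loops act were looked for in the promoters of the members, to show which members carry the letters in the RefSeq reference for build GRCm38.p6. Each window ran from 250 bases before to 50 bases after an annotated start. Windows were found for 8 of the 10 members, 12 windows in all, and Per2 and Bhlhe40 had none in the table. Both strands were searched for the E-box CACGTG, a variant of it (the E′-box) AACGTG, the D-box TTATGTAA or TTACGTAA, the core of the ROR element TAGGTCA and the cAMP response element TGACGTCA. The stretches that hold a match are printed 5′ to 3′ on the gene's own strand, with the matched letters in capitals. They are Arntl on the plus strand (chr7:113207496-113207560), Per1 on the plus strand (chr11:69098738-69098833), Per3 on the minus strand (chr4:151044771-151044915), Cry1 on the minus strand (chr10:85185064-85185178), Cry2 on the minus strand (chr2:92434185-92434280) and Bhlhe41 on the minus strand (chr6:145865523-145865618).
Arntl: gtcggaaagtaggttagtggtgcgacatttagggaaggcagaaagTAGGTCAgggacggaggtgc
Per1: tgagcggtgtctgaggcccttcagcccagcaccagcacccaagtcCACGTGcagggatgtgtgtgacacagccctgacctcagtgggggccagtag
Per3: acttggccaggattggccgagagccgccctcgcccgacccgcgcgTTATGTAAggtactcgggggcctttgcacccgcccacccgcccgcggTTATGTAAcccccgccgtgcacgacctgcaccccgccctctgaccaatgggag
Cry1: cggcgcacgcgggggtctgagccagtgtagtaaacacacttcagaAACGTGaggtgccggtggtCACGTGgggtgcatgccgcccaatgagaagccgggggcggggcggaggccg
Cry2: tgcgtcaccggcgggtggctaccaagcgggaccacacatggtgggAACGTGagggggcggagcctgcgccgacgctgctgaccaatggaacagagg
Bhlhe41: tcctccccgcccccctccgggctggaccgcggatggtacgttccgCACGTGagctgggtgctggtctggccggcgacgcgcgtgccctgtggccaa

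An E-box or E′-box was thus found in 4 of the 8 members that had a window, namely Per1, Cry1, Cry2 and Bhlhe41 (4 of the 12 windows), and in 11.4% of the 32851 promoter windows of all genes (7.15% for the E-box and 4.68% for the E′-box). The E-box of Per1 lay in 1 of its 2 windows, 166 bases before that start. Cry1 held both forms, 79 and 60 bases before its start. Per3 held the D-box 2 times, 205 and 158 bases before its start, against 1.06% of all windows with a match. The ROR core lay in 1 of the 2 windows of Arntl, at base 31 after the start, and 2.61% of all windows held one. The cAMP response element, found in 1.79% of all windows, was in no member's window, and Clock and Dbp had no match to any of these motifs. Sites that lie farther from the start, or with other letters, would not be seen in this search.

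**Figure D1:**
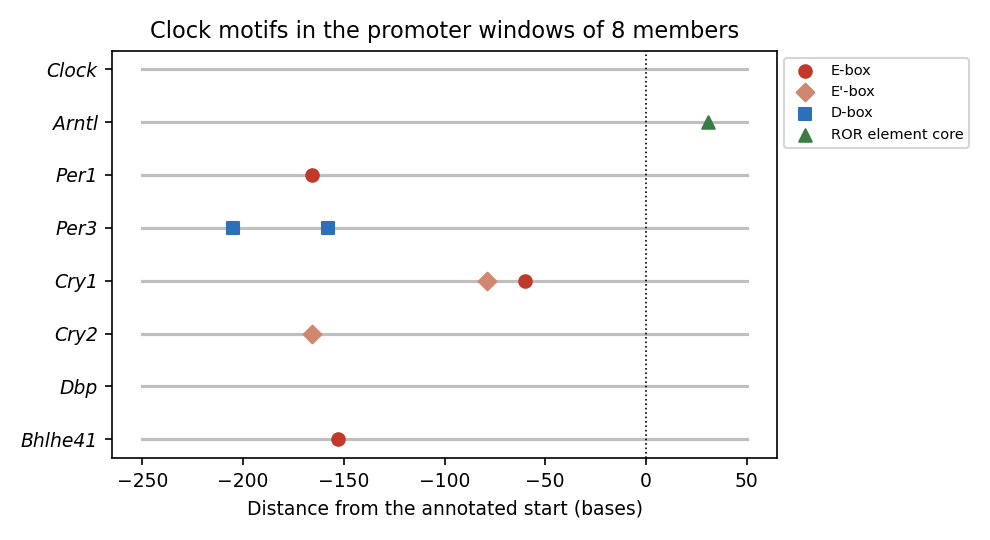
Position of motif matches in the promoter windows of 8 members. The x axis is the distance in bases from the annotated start (dotted line), each grey line is a window of 250 bases before to 50 bases after it, and symbols mark the first base of each match. Matches lie upstream of the start in Per1, Per3, Cry1, Cry2 and Bhlhe41, and downstream of it in Arntl. The windows of the alternative starts of Clock, Arntl and Per1 are drawn as 1 line per gene.

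The label of the cells was set against lineage markers before the clock genes were compared. All 8 basal mammary markers were 2-fold or more above NTC in TIC and all 9 luminal markers 2-fold or more below, with summed levels of 3732 against 39.9 FPKM and 175.6 against 3648 FPKM (TIC against NTC). Among markers of other cell types, the 8 immune genes summed to 2.52 and 2.23 FPKM, with Ptprc and Cd3e listed at 0 in both libraries, and the 5 endothelial genes to 3.07 and 0.351 FPKM. The 6 fibroblast genes summed to 173.6 against 2.44 FPKM, and all 4 that reached a mean of 1 FPKM were higher in TIC by 2-fold or more. These were Dcn (151.8 against 1.51 FPKM), Col1a2 (9.56 against 0.0119 FPKM), Pdgfra (8.83 against 0.513 FPKM) and Pdgfrb (2.44 against 0.0701 FPKM), while Lum and Col1a1 were below 1 FPKM in both libraries. The 5 adipocyte and erythroid genes summed to 0.151 against 5.82 FPKM. The part that lineage or cell mixture has in the differences of the clock genes was not tested. A rough estimate of depth was 21.0 M fragments for TIC and 21.6 M for NTC. It used values within a preset window, which limits how far the 2 estimates could differ.

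Single clock genes differed in both directions. The activators Clock and Arntl were more than 2-fold higher in TIC, Bhlhe41 was more than 2-fold lower, and the other 7 lay within 2-fold. Ratios here are log2 of TIC over NTC after adding 1 FPKM to each level, which understates the difference of low genes. All 10 members had a mean over both libraries of 1 FPKM or more, as did 12004 genes in all. Higher by 2-fold or more were 2 of the 10, beside 14.6% of the 12004 genes, and lower by as much was 1 of the 10, beside 13.8%. In either direction it was 3 of the 10, beside 28.4% of the genes. At 1.5-fold, 4 members were higher and 3 lower, beside 20.4% and 26.7%. The 2-fold shares are near the background. The share higher by 1.5-fold is above it but rests on only 4 of 10 genes. The counts thus give no result about the members as a group. In direction, 5 members were higher in TIC and 5 lower, and the same split was found relative to the median gene. The median log2 ratio was 0.07 over the members and -0.16 over all genes.

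**Figure D2:**
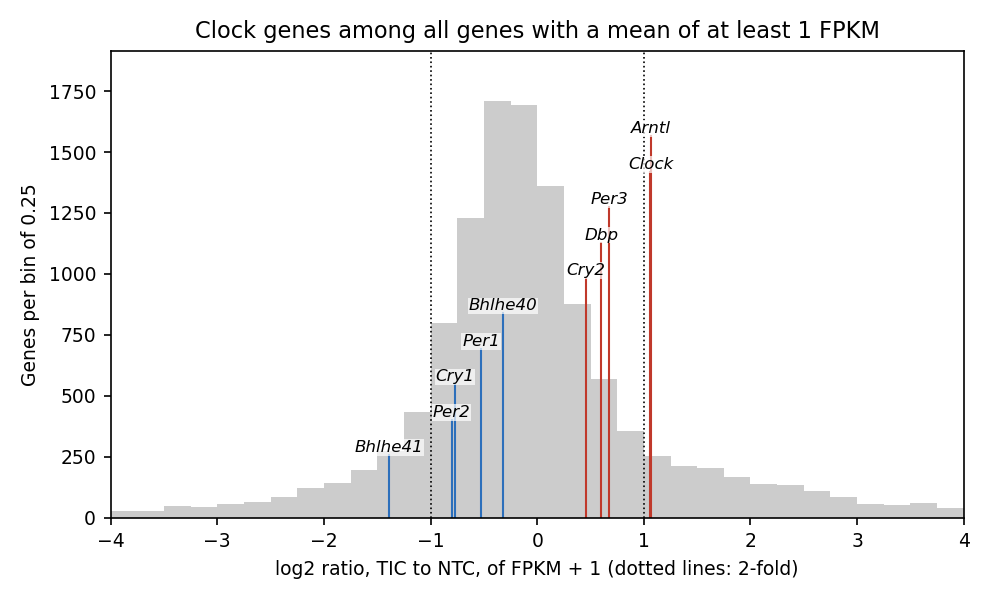
Log2 ratio of TIC to NTC for the clock genes (labelled lines, red above 0 and blue below) on the histogram of all genes whose mean is 1 FPKM or more (grey, y axis in genes per bin). The x axis ends at -4 and 4, outside of which lie 368 genes, and line heights only separate the labels. Clock and Arntl lie just past the upper 2-fold line and Bhlhe41 past the lower one.

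The members spanned a wide range of levels in both libraries. In TIC the order from high to low was Bhlhe40, Bhlhe41, Clock, Per1, Arntl, Per3, Cry2, Cry1, Dbp and Per2. In NTC it was Bhlhe40, Bhlhe41, Per1, Cry1, Clock, Arntl, Cry2, Per3, Per2 and Dbp. Without replicates, neighbours in these orders cannot be separated from one another. Bhlhe40 was above 95.9% of the 12004 genes in TIC and above 96.8% in NTC, whereas Dbp was above 16.1% and 10.4%.

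**Figure D3:**
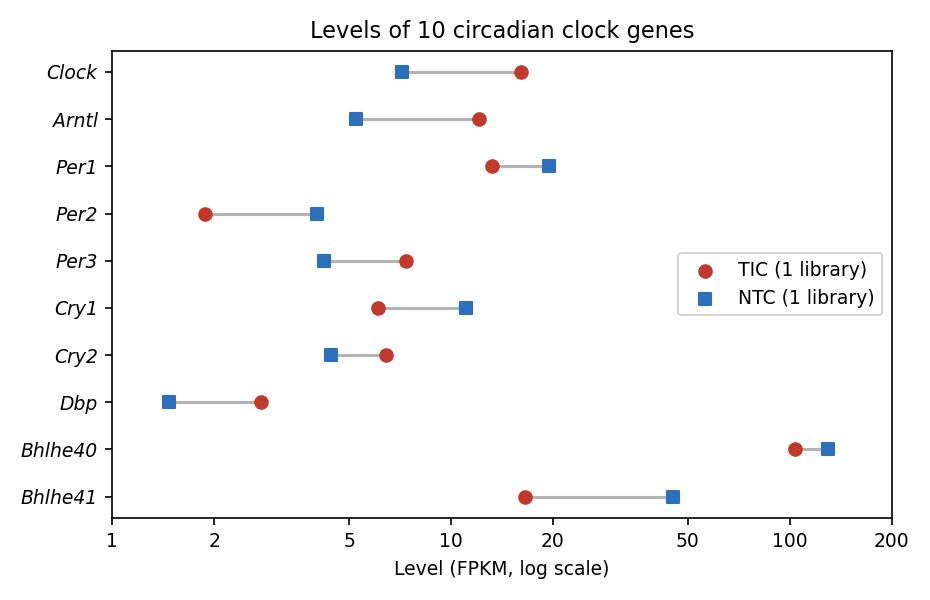
Level of each clock gene in the TIC library (red circles) and the NTC library (blue squares), in FPKM on a log axis, with a grey line joining the 2 values of a gene. Clock, Arntl, Per3, Cry2 and Dbp have the red circle to the right, and Per1, Per2, Cry1, Bhlhe40 and Bhlhe41 have it to the left.

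The 2 activators at the head of the loop were higher in TIC. Clock, a transcription factor of the bHLH-PAS family, had 16.1 FPKM in TIC and 7.17 FPKM in NTC, a log2 ratio of 1.06 (chromosome 5, 76641202 to 76733573, build mm9). Arntl, its partner BMAL1, had 12.1 FPKM in TIC and 5.26 FPKM in NTC, a log2 ratio of 1.07 (chromosome 7, 120350979 to 120457640). Both partners were thus higher in TIC by about the same factor, and the level of Clock over that of Arntl was 1.32 in TIC and 1.36 in NTC. Their ratios were above those of 86.0% and 86.1% of all genes.

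The paralogs of the activators had the opposite order. Npas2, which can take the place of CLOCK as the partner of BMAL1, had 0.332 FPKM in TIC and 6.63 FPKM in NTC, a log2 ratio of -2.52. Its level in NTC was close to that of Clock (7.17 FPKM), whereas in TIC the level of Clock was 48.3 times that of Npas2. Clock therefore made up 98.0% of the summed level of the pair in TIC and 51.9% in NTC. The sum itself differed less, with 16.4 against 13.8 FPKM. The low TIC level of Npas2 rests on an estimated 30 fragments, compared with 607 in NTC. Arntl2, the paralog of Arntl, had 2.03 FPKM in TIC and 2.87 FPKM in NTC, and Arntl made up 85.7% and 64.6% of that pair.

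**Figure D4:**
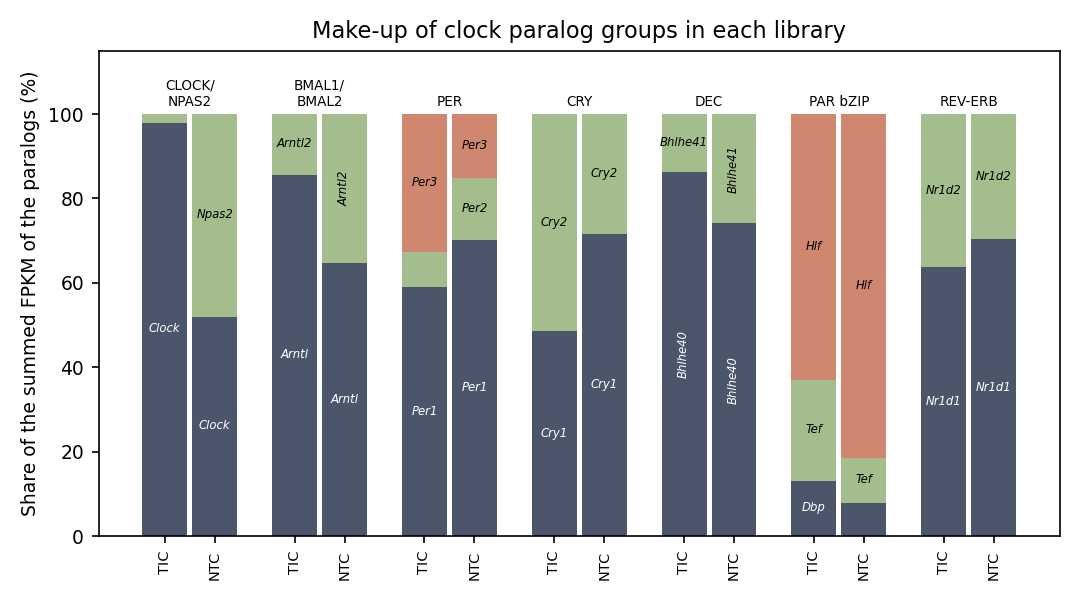
Share of each paralog in the summed FPKM of its group (y axis, percent) in the TIC and NTC libraries, with segments labelled by gene where wide enough. Npas2 takes 2.03% of its pair in TIC and 48.1% in NTC and Cry1 takes 48.5% and 71.5%.

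The Period genes, whose proteins carry the repressing complex into the nucleus, were split. Per1 had 13.2 FPKM in TIC and 19.5 FPKM in NTC, a log2 ratio of -0.53 (chromosome 11, 68912458 to 68923459). Per2 had 1.88 FPKM in TIC and 4.02 FPKM in NTC, a log2 ratio of -0.80 (chromosome 1, 93312559 to 93355905). Per3, which is not needed for the core rhythm in mice, went the other way with 7.35 FPKM in TIC and 4.23 FPKM in NTC, a log2 ratio of 0.67 (chromosome 4, 150377764 to 150418731). Per1 and Per2 were thus lower in TIC and Per3 higher. Without the added 1 FPKM, the level of Per2 in NTC was 2.14 times that in TIC, so whether it counts as 2-fold depends on that setting. The level of Per3 over that of Per2 was 3.91 in TIC and 1.05 in NTC. The 3 genes summed to 22.5 FPKM in TIC and 27.8 FPKM in NTC, a log2 ratio of -0.29. With both libraries scaled to the same FPKM total, that ratio was -0.12.

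The cryptochromes, the main repressors of CLOCK and BMAL1, were split as well. Cry1 had 6.07 FPKM in TIC and 11.1 FPKM in NTC, a log2 ratio of -0.77 (chromosome 10, 84594445 to 84647799). Cry2 had 6.43 FPKM in TIC and 4.41 FPKM in NTC, a log2 ratio of 0.46 (chromosome 2, 92243804 to 92274226). The levels of both were close in TIC, with Cry1 at 0.944 times Cry2, and apart in NTC, with Cry1 at 2.51 times Cry2. Their sum was 12.5 FPKM in TIC and 15.5 FPKM in NTC, a log2 ratio of -0.29, which was -0.12 at the same FPKM total. The locus given for Cry2 is shared with D930015M05Rik, which was below 1 FPKM in both libraries.

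The level of Arntl over that of another clock gene within 1 library does not depend on how the libraries were scaled. Arntl over Per1 was 0.915 in TIC and 0.269 in NTC, and Arntl over Per2 was 6.45 and 1.31. Against Nr1d1 (REV-ERB alpha), the difference was smaller, with 0.532 in TIC and 0.361 in NTC. Against Dbp, an activator and not a repressor, it was 4.41 and 3.57. The TIC library thus had more Arntl for each of these 4 genes, by the widest margin for Per2 and the narrowest for Dbp. This does not hold for every clock gene. The D-box factors Tef and Nfil3 had 2.45 and 2.84 times their NTC levels in TIC, more than the 2.31 times of Arntl.

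Bhlhe40 and Bhlhe41, which encode DEC1 and DEC2, bind E-boxes and compete with CLOCK and BMAL1 there, and were the highest members in both libraries. Bhlhe40 had 104 FPKM in TIC and 129.8 FPKM in NTC, a log2 ratio of -0.32 (chromosome 6, 108527033 to 108616919). At the same FPKM total, the ratio of Bhlhe40 was -0.14. Bhlhe41 had 16.6 FPKM in TIC and 45.2 FPKM in NTC, a log2 ratio of -1.39 (chromosome 6, 145811257 to 145813860). Of all genes, 8.65% had a ratio lower than that of Bhlhe41. Both genes were lower in TIC, Bhlhe41 by far more, and Bhlhe40 was 6.26 times as high as Bhlhe41 in TIC and 2.87 times in NTC. The locus given for Bhlhe40 also holds 0610040F04Rik, with 2.52 FPKM in TIC and listed at 0 in NTC.

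Dbp, a D-box activator that is a direct output of the E-box loop, was low in both libraries, with 2.75 FPKM in TIC and 1.47 FPKM in NTC and a log2 ratio of 0.60 (chromosome 7, 52960617 to 52973372). These levels rest on the smallest estimated number of fragments of any member, about 106 in TIC and 58 in NTC. The locus given for Dbp is shared with Sphk2, a sphingosine kinase, which had 13.9 FPKM in TIC and 18.7 FPKM in NTC, and no source says how reads of a shared locus were divided. The related D-box activator Tef had 4.97 FPKM in TIC and 2.02 FPKM in NTC, a log2 ratio of 0.98. Hlf of the same family had 13.2 against 15.4 FPKM and was the most abundant of the 3 in both libraries. Nfil3, which represses through the same site, had 10.9 FPKM in TIC and 3.82 FPKM in NTC, a log2 ratio of 1.30. Of these 4 D-box factors, Dbp, Tef and Nfil3 had higher levels in TIC and Hlf a lower one. Nfil3 passed 2-fold with the added 1 FPKM, while Tef, at 2.45 times its NTC level, passed it only without.

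Receptors that act on Arntl were compared next. The repressors Nr1d1 and Nr1d2 were higher in TIC, with 22.8 against 14.5 FPKM (log2 ratio 0.61) and 13.0 against 6.12 FPKM (log2 ratio 0.98). The activator Rora was lower in TIC, with 6.13 against 9.29 FPKM (log2 ratio -0.53). Rorb was below 1 FPKM in both libraries. Summed levels were 35.8 FPKM in TIC and 20.7 FPKM in NTC for the REV-ERB pair. In TIC, where Arntl was higher, both of these repressors were thus higher too. In the GENCODE annotation the end of Nr1d1 overlaps that of the thyroid hormone receptor gene Thra on the other strand, while the loci in the tables do not overlap, and no source says that reads were counted by strand.

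**Figure D5:**
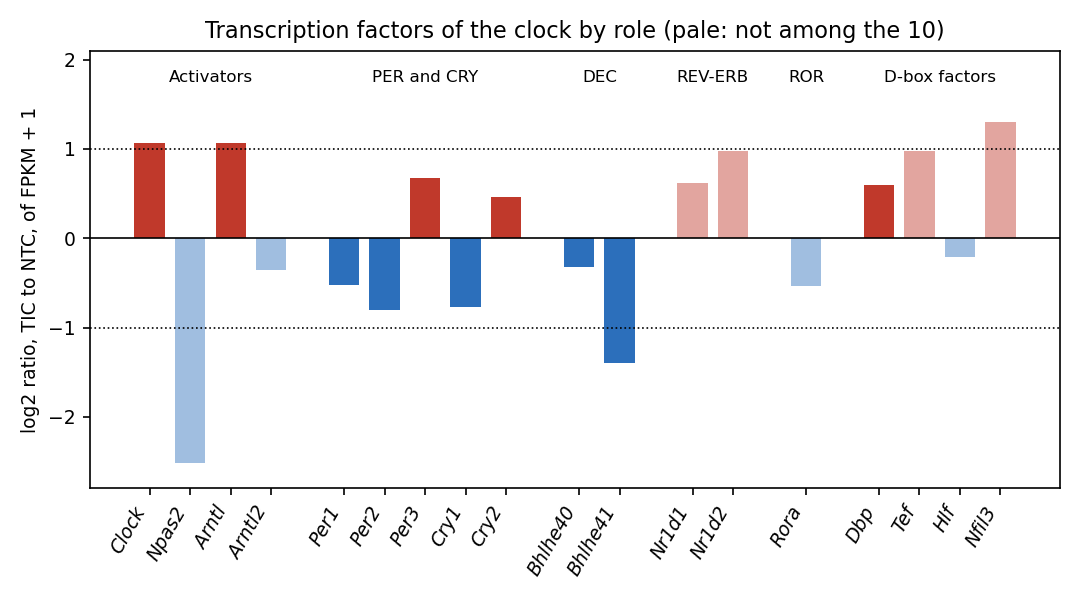
Log2 ratio of TIC to NTC, of FPKM + 1, for 18 transcription regulators of the clock grouped by role, with members of the 10 in full colour and other genes pale (red higher in TIC, blue lower). Bars run from -2.52 for Npas2 to 1.30 for Nfil3, and the dotted lines mark 2-fold.

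Most of the wider clock machinery lay within 2-fold. Outside the 10 members, 50 of 52 genes of the wider list reached a mean of 1 FPKM, of which 2 were higher by 2-fold or more in TIC, 6 lower by as much and 42 within 2-fold, beside the 14.6% higher and 13.8% lower among all genes. Their median log2 ratio was -0.11, beside -0.16 over all genes. The kinases that mark PER proteins for turnover were similar in the 2 libraries. Csnk1d had 56.7 against 59.1 FPKM and Csnk1e 32.6 against 23.0 FPKM. The kinase gene Prkaa2, a catalytic subunit of AMPK, stood out with 0.471 FPKM in TIC and 12.9 FPKM in NTC (log2 ratio -3.24), while its paralog Prkaa1 had a log2 ratio of 0.62. Ppp1cb, a catalytic subunit of protein phosphatase 1, had 47.0 against 156.6 FPKM.

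Among the genes of protein turnover, Fbxl21, a ubiquitin ligase subunit that binds cryptochromes, had 3.51 FPKM in TIC and 0.157 FPKM in NTC, a log2 ratio of 1.96, with an estimated 7 fragments behind the NTC level. Usp2, a deubiquitinase with a strong daily rhythm in many tissues, had 0.955 against 3.18 FPKM. Timeless, a replication fork protein linked to the clock, had 2.42 against 7.22 FPKM, and its partner Tipin 13.3 against 15.9 FPKM. Ciart, a repressor of the loop found in the tables under an older name, was below 1 FPKM in both libraries. Of 14 measured genes of the E-box and D-box output list, which includes 6 of the 10 members, none was 2-fold or more higher in TIC after adding 1 FPKM and 2, Bhlhe41 and Usp2, were lower by that much, beside the same 14.6% and 13.8%. Tef and Nr1d2 of this list, at 2.45 and 2.13 times their NTC levels, fell short of 2-fold only through the added 1 FPKM. The median of this list was -0.33. Hlf, Prkaa1, Prkaa2, Csnk1d and Usp2 are described in the tables by several gene identifiers, so their values may combine transcripts of more than 1 gene.

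Some clock genes also answer to stimuli outside the loop. Per1 and Bhlhe40 can be induced within minutes to hours, in the way of immediate early genes, Per1 is also a target of the glucocorticoid receptor, and the Bhlhe40 and Bhlhe41 genes are targets of the hypoxia-inducible factors. Of 23 measured immediate early genes, TIC had 3 higher and 6 lower by 2-fold or more, beside 14.6% and 13.8% of all genes, and the median was -0.71 beside -0.16. Fosb had 85.9 against 439 FPKM, Klf2 1.17 against 14.6 FPKM, Egr2 49.6 against 5.70 FPKM and Egr3 40.4 against 4.37 FPKM. Of 9 measured glucocorticoid response genes, TIC had 4 lower and none higher by 2-fold or more, beside the same 13.8% and 14.6%, and their median was -0.93. Fkbp5, which binds the receptor complex, had 3.59 against 21.8 FPKM, and the receptor gene Nr3c1 itself had 17.5 against 17.3 FPKM.

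Genes of the hypoxia response, regulators included, differed in both directions. Of 12 measured, TIC had 5 higher and 2 lower by that factor, beside the same 14.6% and 13.8%, and the median was 0.71. P4ha1, a collagen prolyl hydroxylase, had 33.7 against 5.33 FPKM, and Bnip3, a mitochondrial receptor for autophagy, 21.2 against 4.78 FPKM. The 2 lower genes were Ndrg1 (43.5 against 118.7 FPKM) and Epas1, which encodes a hypoxia-inducible factor (3.95 against 12.0 FPKM). Hif1a, which encodes another such factor, was among the 5 higher genes, with 53.0 against 22.6 FPKM. The part of any of these responses in the levels of Per1, Bhlhe40 and Bhlhe41 was not tested.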

How the data were processed

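RNA was sequenced from 1 library of TIC and 1 of NTC. Per the labels' protocols, 15 ng of total RNA was amplified to cDNA before library preparation, which can shift levels with transcript length and base composition. The deposited values are gene-level FPKM that the authors computed. Tools listed in the submitters' processing notes are TopHat 1.4.0, Cufflinks, Cuffdiff and CASAVA 1.8.2, and the build is mm9, with no roles or settings. A column heading names a human build, but 99.7% of 20009 shared symbols lay on the chromosome of the mouse gene, and positions are given as mm9. The reference for starts was another build, GRCm38, and only 4.41% of starts on the same chromosome lay within 1 kb of it. Starts were 1 below the GRCm38 start for 197 genes and equal for 11, so 1 was added.

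FPKM are not counts, so no count model or test was run. Ratios were log2((TIC + 1)/(NTC + 1)), and calls needed 2-fold among genes whose mean reached 1 FPKM. Depth was estimated from the FPKM × kb that 1 read is worth in short olfactory and vomeronasal receptor genes (0.0476 in TIC, 0.0463 in NTC), sought between 0.035 and 0.065, and fragments per gene from that and the longest GENCODE coding transcript, or the locus where shorter. The fragment numbers cover counting error only. Depth was the median of the values inside that window, from 23 genes in TIC and 39 in NTC. The window itself thus limits how far the 2 depths can differ. Promoters are from RefSeq, build GRCm38.p6. The comparison of protein sequences planned for the paralogs was not run. Some genes of the lists are counted but not reported here by name.

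The members were named by gene symbol and not by level. They and the 17 gene lists were set with earlier results of these data known. Named genes are the members, measured genes of the clock lists, and up to 4 of each other list with the largest ratio. Nr3c1, Ndrg1, Epas1, Hif1a, Ciart, Rorb and the markers and genes of shared loci given by level fall outside this rule and were named after their values were seen. Scripts ran in Python 3.11.15 with pandas 2.3.3 and were tested on simulated data.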

Additional observations from a re-analysis of the deposited data

How the results depend on the processing

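No paired analysis was possible because each group had 1 library, and no library could be left out. The direction of each of the 10 members was the same with a pseudocount of 0.1 or 5 FPKM, with equal FPKM totals and with ratios centred on the median gene. With a pseudocount of 5, Clock (0.79) and Arntl (0.74) were no longer 2-fold higher, so the number of members at least 2-fold higher was 0 and 1 was lower, beside 9.05% and 7.67% of all genes, and the median of the members was -0.024 in place of 0.07. With a pseudocount of 0.1, Per2 (-1.06) also passed 2-fold, making 2 lower. At 1.5-fold, 4 members were higher and 3 lower. Equal totals and centring on the median gene, which move the median gene from -0.16 to about 0, raised the members' median to 0.23 in both cases and left the counts at 2 and 1. Without a filter the members' counts and median did not move, but the shares of all genes were 8.50% higher and 7.79% lower, with a median of 0, in place of 14.6%, 13.8% and -0.16. The mean of 8 members reached 5 FPKM. Levels near 1 FPKM rest on few fragments, which limits Dbp, Npas2 in TIC and Fbxl21 in NTC.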
